A study of Homo sapiens with 24 samples.

Results

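The interferon-stimulated genes are 43 genes that cells switch on when they meet an interferon, taken by gene name from an array that carries 27274 gene names. Their 54 array probes were compared over 4 treatments of HCT-116 cells, a human colorectal cancer line, and 31 of the 43 genes (36 of the 54 probes) had a signal high enough to test. The cells are 1 stably transfected clone that carries a Tet repressor and a doxycycline-inducible, FLAG-tagged DN-Tcf4, a Tcf4 that cannot bind beta-catenin and so represses Wnt target genes. Every group, the controls included, carries this construct. Cells received neither agent (Ctl, labelled both untreated and mock-treated), were given 5 mM sodium butyrate (NaB), an inhibitor of histone deacetylases, given 4 µg/ml doxycycline (Doxy), or given both (DoxyNaB), with a treatment time of 17.5 hr. Each of 6 experiments gave 1 one-colour array per treatment, 24 in all. The comparisons ask which of these genes change with butyrate (NaB/Ctl), whether they also change in the presence of doxycycline (DoxyNaB/Doxy), and whether the 2 responses differ (the interaction). The paper reports minimal DN-Tcf4 protein with doxycycline alone and high levels with both agents. DoxyNaB and Doxy thus differ in DN-Tcf4 as well as in butyrate, and the 2 cannot be told apart in DoxyNaB/Doxy or in the interaction.

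Interferons are secreted proteins that signal to neighbouring cells that a virus is present. Type I and type III interferons bind their receptors, the kinases JAK1 and TYK2 phosphorylate STAT proteins, STAT2 among them, and these join IRF9 to form a complex called ISGF3. ISGF3 binds the interferon-stimulated response element (ISRE) in the promoters of its target genes, whose products sense viral RNA, degrade it, block its translation or trap virus particles. Some of the targets, such as STAT2, IRF9, IRF7 and DDX58, belong to the pathway itself.

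The ISRE core can be read directly in the promoters of several genes whose level moved with butyrate. A window of 250 bases before and 50 bases after the transcription start was given by RefSeq (build GRCh38.p14) for 33 of the 43 genes, with DDX58 listed there under the symbol RIGI. The windows not given are those of IFIT2, DHX58, MX2, OAS2, OASL, IRF2, IRF7, IFITM2, USP18 and GBP2. Below are the stretches around each ISRE core, which is GAAA, any 2 bases and GAAA again (in capitals; in the other orientation it reads TTTC, any 2 bases and TTTC) upstream of the start in 3 genes that rose with butyrate and 2 that fell, each read 5′ to 3′ along the gene, so that genes of both directions can be compared. ISG15 was called higher with butyrate in the presence of doxycycline only.
ISG15, chr1:1013364-1013419, plus strand: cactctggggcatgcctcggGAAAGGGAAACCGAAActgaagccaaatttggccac
IFI6, chr1:27672256-27672368, minus strand: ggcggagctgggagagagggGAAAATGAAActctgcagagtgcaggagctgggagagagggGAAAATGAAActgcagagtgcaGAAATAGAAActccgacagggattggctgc
IFIT1, chr10:89392487-89392549, plus strand: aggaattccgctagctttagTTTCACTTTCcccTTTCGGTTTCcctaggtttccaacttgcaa
OAS3, chr12:112938311-112938473, plus strand: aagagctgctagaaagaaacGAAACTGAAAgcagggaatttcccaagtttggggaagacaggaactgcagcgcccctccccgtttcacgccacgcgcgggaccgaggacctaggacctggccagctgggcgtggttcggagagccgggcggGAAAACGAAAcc
PARP12, chr7:140062952-140062981, minus strand: tttcgccggcccggggccgcTTTCGGTTTC

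Some genes have several start sites, so the 33 genes have 42 windows. The ISRE core, searched on both strands with overlapping matches counted, was in at least 1 window of 24 of the 33 genes (72.7%), against 4.38% of the 27305 genes of the whole promoter table. The core TTCNNNGAA, which reads the same on both strands and is that of the gamma-activated sequence of genes that respond to interferon gamma, was in a window of 10 of the 33 genes (30.3%), against 9.38% of all genes. In BST2, IFI27, IFITM1 and MX1 the 2 cores shared bases. A core was found on both sides of the response. Among genes with a window, the ISRE core was in 4 of 5 called higher in a butyrate comparison and in 4 of 6 called lower. It was in 8 of 12 tested genes called in neither. In these 3 sets 9, 7 and 15 members were called or tested, and IRF7, DHX58, OASL and GBP2 (called higher) and IFIT2 (called lower) had no window. A match of letters is a description of the window and does not show a bound site.

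Each level below is the log2 of a probe's signal after division by the 75th percentile of its array (control spots left out), so that a level of 0 lies at that percentile. Levels of different genes are not compared, because probes bind with different strength. Changes are log2 differences fitted across all tested probes with the experiment as a block (limma), with Benjamini-Hochberg adjusted p-values over the 18962 tested probes. A gene was called when its probe of highest mean level passed an adjusted p under 0.01 and, in the butyrate comparisons, a fold over 2. A signal is well above background when it passes the software's own test.

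Between 52.7% and 62.6% of the non-control spots were well above background on the arrays of experiments 1, 5 and 6, and between 78.4% and 88.1% on those of experiments 2 to 4. Negative controls, spots that carry no human sequence, had their highest mean net signal on the DoxyNaB array of experiment 2 (248.9) and the NaB array of experiment 3 (161.0), with 114.6 on the next. In experiments 2 to 4 it was 63.1 to 76.9 on Ctl, 112 to 161.0 on NaB, 68.7 to 79.6 on Doxy and 69.1 to 248.9 on DoxyNaB arrays, the lowest DoxyNaB value being that of experiment 3. In experiments 1, 5 and 6 it lay between 48.4 and 64.3 in all groups. The part of this background in the changes of dim members was not tested. In experiment 1 the butyrate arrays were on another slide than the other arrays. Of 7 epithelial markers, 6 were well above background on all 24 arrays and EPCAM was on 22. Of 6 leukocyte, 5 fibroblast and 3 endothelial markers, 1 (CD68) was so on all 24 arrays and COL3A1 was on 0, but CD14 and COL1A1 were on 23. The mean level of VWF went from -5.11 on Ctl arrays to -2.33 on NaB arrays. All of these leukocyte, fibroblast and endothelial markers but PTPRC had a higher mean level on NaB than on Ctl arrays. Their part in the results was not tested. TCF7L2, the gene of Tcf4, has 3 probes, and the probes A_23_P127013 and A_23_P389588 were higher in DoxyNaB than in NaB (log2 4.45 ± 0.42 SE, adjusted p = 1.77e-06, and 2.96 ± 0.36 SE, adjusted p = 3.90e-05). In Doxy against Ctl both had an adjusted p over 0.05, at log2 0.29 and -0.18. The remaining probe, A_33_P3377304, was lower in DoxyNaB than in NaB (log2 -1.26 ± 0.25 SE, adjusted p = 5.46e-03).

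Butyrate moved the interferon-stimulated genes in both directions. In NaB/Ctl, 7 of the 31 tested members were called higher (IRF7, DHX58, OASL, GBP2, IFI6, IFIT1 and TRIM21) and 6 lower (PARP9, IFI35, PARP12, SP100, OAS3 and IFIT2). With doxycycline present, in DoxyNaB/Doxy, 9 were called higher, with STAT2 and ISG15 added, and 6 lower, with EIF2AK2 in place of IFIT2. Of these, IRF7 was 14.4-fold higher and IFI35 4.68-fold lower in NaB/Ctl. GBP2 passed the filter on low values only through NaB, and PARP9 and IFIT2 only through Ctl and Doxy, which are the groups where they are high, so that these 3 calls are no support for a direction. Over all 15142 genes tested, 21.2% were called higher and 11.2% lower in NaB/Ctl, and 18.9% and 12.3% in DoxyNaB/Doxy. The members' 22.6% higher in NaB/Ctl lay near that background, while 19.4% were lower, and in DoxyNaB/Doxy the shares were 29.0% and 19.4%.

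In all, 7 members were called higher in both butyrate comparisons, 5 were called lower in both, 1 was called only in NaB/Ctl, 3 only in DoxyNaB/Doxy, and 0 in opposite directions. The matching shares over all genes are not given, so these counts are a description and no trait of the members. They include GBP2, PARP9 and IFIT2. The median change of the 31 members was 0.05 in NaB/Ctl and -0.05 in DoxyNaB/Doxy, beside 0.18 and 0.12 over all genes tested. The median size of the change without its sign was 0.97 for the members and 0.68 for all genes in NaB/Ctl, and 1.05 and 0.65 in DoxyNaB/Doxy. At an adjusted p under 0.01 with any fold, 14 members were higher and 12 lower in NaB/Ctl, and 13 and 11 in DoxyNaB/Doxy. The share of all genes that pass at any fold is not given, so these counts too are only a description. The 6 arrays of NaB did not overlap those of Ctl for 12 higher members (background 25.6%) and 8 lower ones (19.8%), and those of DoxyNaB did not overlap those of Doxy for 11 (22.7%) and 9 (20.8%). The lower ones include PARP9 in both comparisons, for which the separation is only a description.

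**Figure D1:**
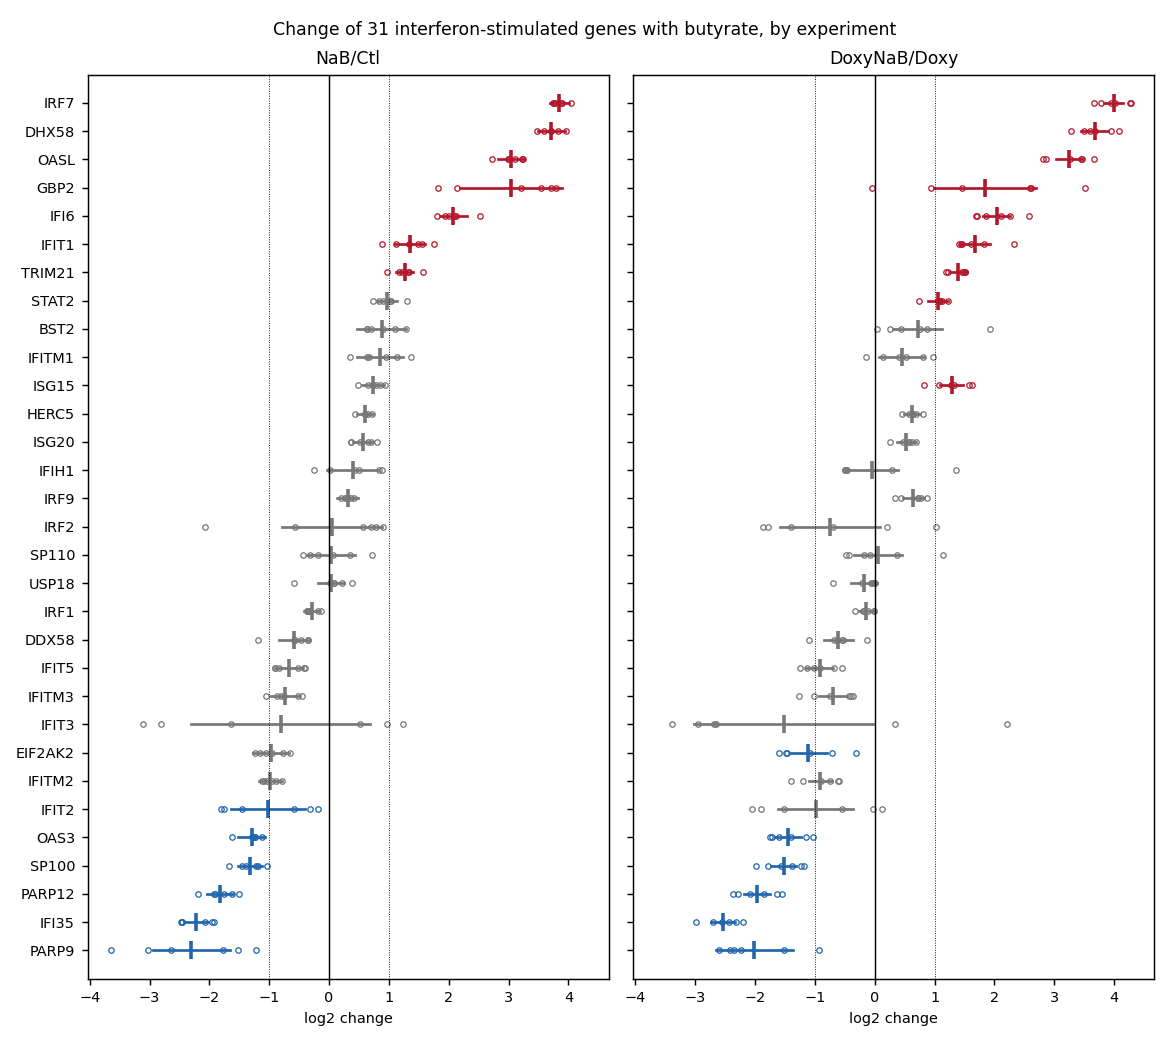
Log2 change of the 31 tested interferon-stimulated genes in NaB/Ctl (left) and DoxyNaB/Doxy (right); open circles are the 6 experiments, vertical ticks the fitted change, bars its 95% confidence interval, dotted lines a fold of 2, red called higher, blue called lower, grey not called. IRF7, DHX58 and OASL lie above 3 in both panels, PARP9, IFI35 and PARP12 lie below -1 in NaB/Ctl, and the circles of IFIT3 and IRF2 lie on both sides of 0.

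How the arrays are scaled moves all genes together. The median change of all genes in NaB/Ctl was 0.18 with the 75th percentile, 0.09 with normexp background correction, -0.01 with quantile normalization and -0.57 with scaling to the median. The share of called genes that were higher was 65.4%, 54.4%, 49.8% and 22.2% in the same order, and in DoxyNaB/Doxy it was 60.5%, 59.6%, 49.3% and 26.8%. All 13 members called in NaB/Ctl and all 15 called in DoxyNaB/Doxy kept their sign under these 4 scalings. Among members not called, 9 of 18 in NaB/Ctl and 9 of 16 in DoxyNaB/Doxy changed sign under at least 1 of them.

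**Figure D2:**
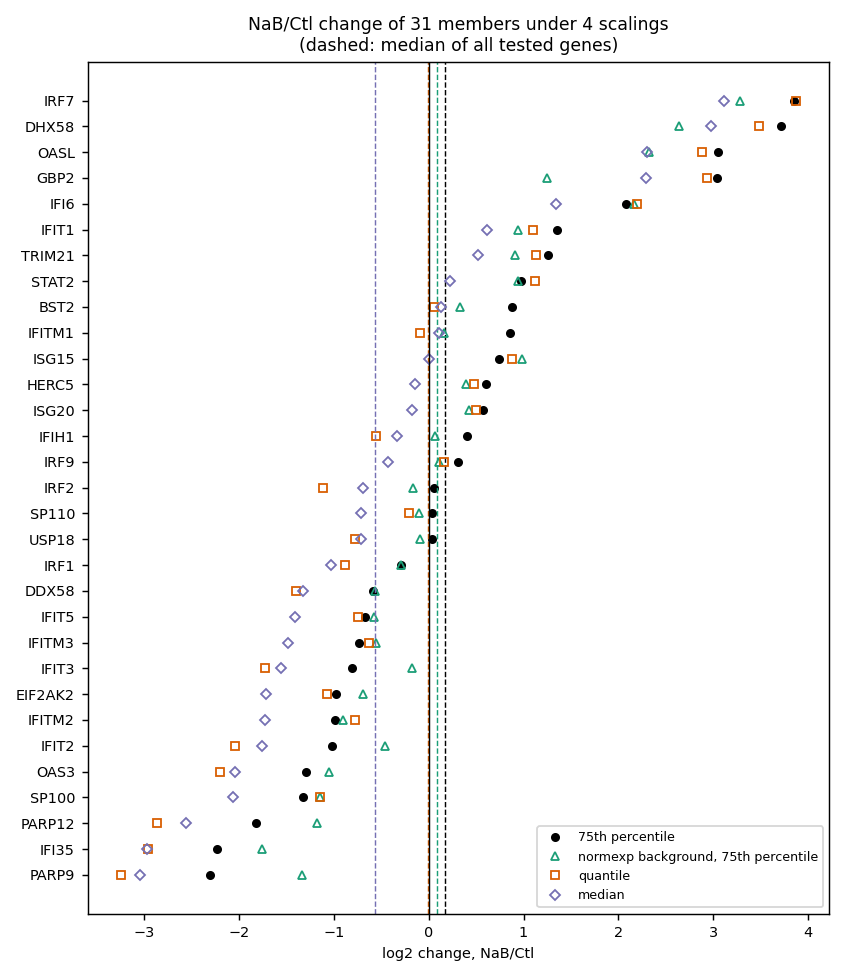
Log2 change in NaB/Ctl of the 31 tested members under 4 ways of scaling the arrays (symbols), with the median of all tested genes under each as a dashed line of the same colour. The 7 members called higher stay to the right of 0 and the 6 called lower to the left under each scaling, while the median of all genes moves from 0.18 with the 75th percentile to -0.57 with scaling to the median.

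The transcription factors that carry the interferon signal showed the largest single rise. IRF7, which switches on interferon genes and amplifies the response, lay between -1.07 and -0.29 (median -0.93) on Ctl arrays and between 2.82 and 3.50 (median 2.95) on NaB arrays. On Doxy arrays it lay between -1.49 and -0.39 (median -1.17) and on DoxyNaB arrays between 2.67 and 3.27 (median 2.87). All arrays with butyrate stood above all arrays without it. Its change was 3.85 ± 0.07 (SE) in NaB/Ctl (14.4-fold, adjusted p = 1.62e-16) and 3.99 ± 0.07 in DoxyNaB/Doxy (15.9-fold, adjusted p = 8.61e-17), higher in 6 of 6 experiments in each.

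STAT2, the STAT that is specific to type I and III interferon signalling, lay between 0.43 and 1.04 (median 0.61) on Ctl arrays and between 1.32 and 1.87 (median 1.62) on NaB arrays. With doxycycline it went from 0.52 to 1.04 (median 0.67) without butyrate to 1.39 to 2.11 (median 1.78) with it. All butyrate arrays stood above all others. The change was just under a fold of 2 in NaB/Ctl (log2 0.97 ± 0.08, 1.96-fold, adjusted p = 3.45e-09) and just over it in DoxyNaB/Doxy (1.05 ± 0.08, 2.07-fold, adjusted p = 1.14e-09), so that it was called in the latter comparison alone, and there neither with normexp (0.91) nor with scaling to the median (0.50). The difference between its changes in the 2 comparisons was -0.08 (95% confidence interval -0.32 to 0.16).

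IRF9, the DNA-binding subunit of ISGF3, lay between -1.14 and -0.75 on Ctl arrays and between -0.71 and -0.38 on NaB arrays. It was higher with butyrate in 6 of 6 experiments of both comparisons, by 0.31 ± 0.08 (adjusted p = 2.85e-03) and 0.64 ± 0.08 (adjusted p = 1.65e-06), short of the fold of 2, but was lower by 0.43 in NaB/Ctl with scaling to the median. IRF1, an activator of many of the same promoters, lay between -1.55 and -1.16 on Ctl arrays and between -1.75 and -1.51 on NaB arrays. Its change was -0.29 ± 0.06 (adjusted p = 2.32e-04) in NaB/Ctl and -0.14 ± 0.06 (adjusted p = 0.0381) in DoxyNaB/Doxy, where normexp gave 0.07. IRF2, known as a repressor of interferon targets, was dim, with 3 of 6 NaB arrays and 2 of 6 DoxyNaB arrays well above background. It passed the filter only through Doxy, so that lower values against Doxy are no support for a direction. Its changes of 0.05 ± 0.40 and -0.75 ± 0.40 were not called (adjusted p = 0.911 and 0.0955), and quantile normalization gave -1.12 and -1.41.

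Of the 3 RNA sensors, which recognise viral RNA in the cytoplasm, 1 rose and the other two were not called. DHX58 (LGP2), which binds RNA but lacks the signalling domain of the other two, lay between -3.24 and -2.77 (median -3.13) on Ctl arrays and between 0.46 and 0.93 (median 0.59) on NaB arrays. With doxycycline it lay between -3.51 and -2.83 (median -3.01) without butyrate and between 0.16 and 0.95 (median 0.60) with it. It rose by 3.71 ± 0.11 (13.1-fold, adjusted p = 4.61e-15) and by 3.68 ± 0.11 (12.8-fold, adjusted p = 4.66e-15). The 12 butyrate arrays all stood above the other 12.

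DDX58 (RIG-I), a sensor that signals to induce interferon, went the other way. It lay between -1.48 and -1.31 on Ctl arrays and between -2.50 and -1.69 on NaB arrays, without overlap. Its change was -0.59 ± 0.12 (adjusted p = 1.92e-04) and -0.61 ± 0.12 (adjusted p = 1.42e-04), lower in 6 of 6 experiments in both comparisons but under the fold of 2, and its other tested probe was at -0.50 and -0.47. IFIH1 (MDA5), the sensor of long double-stranded RNA, lay between -3.82 and -2.80 on Ctl arrays and between -3.54 and -2.01 on NaB arrays, which overlap. Its change of 0.40 ± 0.21 in NaB/Ctl (adjusted p = 0.0843) and -0.05 ± 0.21 in DoxyNaB/Doxy (adjusted p = 0.839) did not pass, and the NaB/Ctl value was 0.74 in experiments 2 to 4 and 0.22 in experiments 5 and 6 (DoxyNaB/Doxy 0.39 and -0.48). DoxyNaB ran from -3.81 to -1.59, with the array of brightest negative controls at the top. Its sign turned under other scalings in both comparisons.

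**Figure D3:**
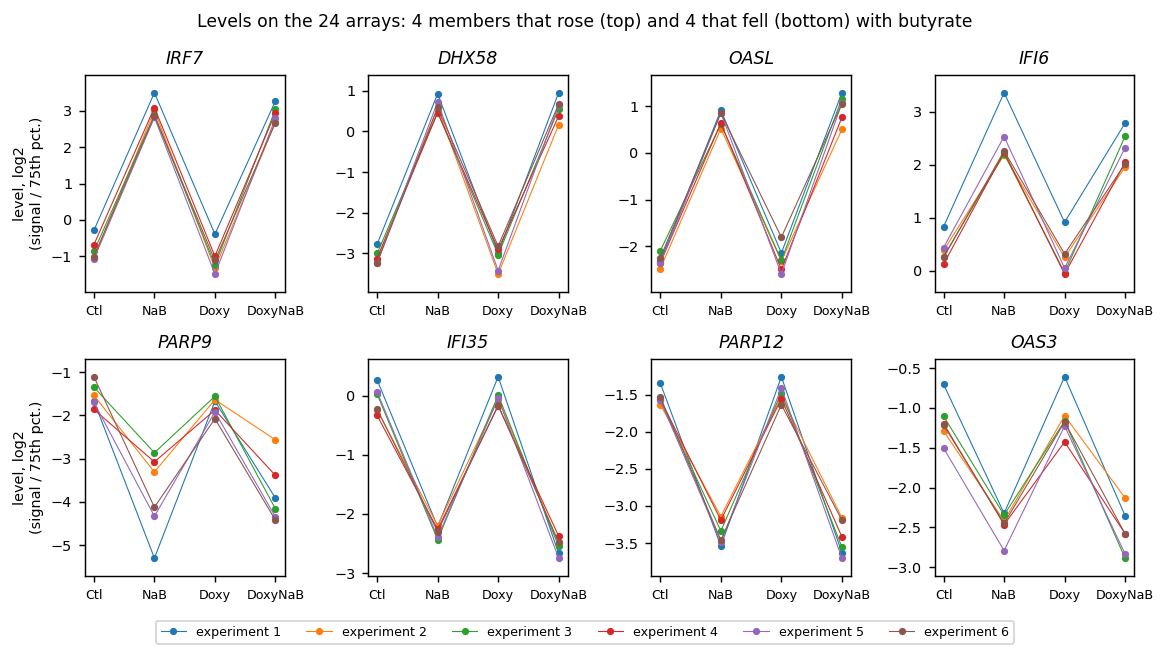
Level (log2 of signal over the array's 75th percentile) of 8 members on the 24 arrays, by treatment, with a line for each of the 6 experiments and a scale of its own in each panel. IRF7, DHX58, OASL and IFI6 are high on NaB and DoxyNaB arrays in every experiment, and PARP9, IFI35, PARP12 and OAS3 are low there.

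The OAS enzymes make the short oligoadenylates that activate RNase L, and 2 of the 4 could be tested. OASL, a relative without this enzyme activity that supports RIG-I, lay between -2.48 and -2.10 (median -2.33) on Ctl arrays and between 0.52 and 0.92 (median 0.75) on NaB arrays. On Doxy arrays it lay between -2.60 and -1.81 and on DoxyNaB arrays between 0.50 and 1.29. It rose by 3.05 ± 0.10 (8.26-fold, adjusted p = 3.02e-14) and 3.25 ± 0.10 (9.53-fold, adjusted p = 1.32e-14), with no overlap between arrays with and without butyrate.

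OAS3, the largest of the OAS enzymes, fell. It lay between -1.50 and -0.70 (median -1.21) on Ctl arrays and between -2.79 and -2.32 (median -2.43) on NaB arrays, and between -1.43 and -0.61 on Doxy arrays against -2.89 and -2.13 on DoxyNaB arrays. The change was -1.30 ± 0.10 (2.46-fold lower, adjusted p = 2.40e-09) and -1.44 ± 0.10 (2.72-fold lower, adjusted p = 5.44e-10), lower in 6 of 6 experiments in each. With normexp the DoxyNaB/Doxy value was -0.72 and was not called. The probes of OASL and OAS3 lie on chromosome 12 (NCBI36) and share at most 21 of 60 bases in any ungapped alignment. OAS1 was well above background on 0 of 24 arrays, and the brightest probe of OAS2 on 3 Ctl, 0 NaB, 3 Doxy and 1 DoxyNaB arrays.

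EIF2AK2 (PKR), the kinase that stops translation when it binds double-stranded RNA, lay between -0.55 and 0.27 on Ctl arrays and between -1.70 and -0.69 on NaB arrays. With doxycycline it lay between -0.62 and 0.21 without butyrate and between -2.08 and -0.41 with it, and the array at -0.41 is the DoxyNaB array of experiment 2. The change was -0.97 ± 0.14 (1.96-fold lower, adjusted p = 7.91e-06) in NaB/Ctl and -1.11 ± 0.14 (2.16-fold lower, adjusted p = 1.64e-06) in DoxyNaB/Doxy. It was called in the latter only, where normexp gave -0.77 and the mean over its probes -0.92, both not called. Its other tested probe was at -0.82 and -1.17.

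The IFIT genes, whose proteins bind viral RNA that lacks the marks of the cell's own, lie together on chromosome 10 (NCBI36 probe positions from 91058377 to 91169598) and did not move together. IFIT1 lay between -2.16 and -1.42 (median -1.94) on Ctl arrays and between -0.68 and -0.34 (median -0.54) on NaB arrays, and between -2.71 and -1.87 against -0.59 and -0.36 with doxycycline. It rose by 1.35 ± 0.12 (2.56-fold, adjusted p = 8.51e-09) and 1.67 ± 0.12 (3.19-fold, adjusted p = 4.60e-10). With normexp or median scaling its NaB/Ctl rise was 0.94 and 0.61 and was not called.

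IFIT2, which works as a complex with the other IFIT proteins, lay between -4.02 and -2.96 (median -3.44) on Ctl arrays and between -5.77 and -3.29 (median -4.46) on NaB arrays, where 3 of 6 arrays were well above background. The ranges overlap. Its change was -1.02 ± 0.30 (2.03-fold lower, adjusted p = 4.69e-03) in NaB/Ctl, a called value, and -0.99 ± 0.30 (adjusted p = 5.92e-03) in DoxyNaB/Doxy, which stayed under a fold of 2. It was -0.37 in experiments 2 to 4 and -1.60 in experiments 5 and 6, and without experiment 1 it was -0.86 and not called. Leaving out experiment 5 (-0.93) or experiment 6 (-0.87) also ended the call, as did normexp (-0.46) and the slide as the block (-0.85, adjusted p = 0.0134). So did limma without the replicate block (adjusted p = 0.0533) and the methods' t-test. In DoxyNaB/Doxy normexp turned its sign (0.07).

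IFIT3 was well above background on 5 Ctl, 3 NaB, 6 Doxy and 2 DoxyNaB arrays. It thus passed the filter only through Doxy, so that calls of lower against Doxy are no support for a direction. On DoxyNaB arrays it ran from -7.12 to -1.43, the highest of these being the array with the brightest negative controls. The change was -0.81 ± 0.71 (adjusted p = 0.310) and -1.52 ± 0.71 (adjusted p = 0.0616), with 0.91 in experiments 2 to 4 and -2.96 in experiments 5 and 6 for NaB/Ctl. In DoxyNaB/Doxy it was called lower with quantile normalization (-2.06), with scaling to the median (-2.07), without experiment 2 (-2.27), in experiments 5 and 6 only (-2.67) and without the 2 arrays of brightest negative controls (-2.10), while normexp turned its sign (0.24). In NaB/Ctl it was called lower with quantile normalization (-1.73), with scaling to the median (-1.55) and in experiments 5 and 6 only. IFIT5, bright on all arrays, lay between -0.32 and 0.36 on Ctl arrays and between -0.74 and -0.26 on NaB arrays, and its change was -0.67 ± 0.11 (adjusted p = 2.22e-05) in NaB/Ctl and -0.92 ± 0.11 (adjusted p = 4.54e-07) in DoxyNaB/Doxy, under the fold of 2.

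Among the membrane proteins that hinder virus entry or release, 0 of 4 were called, and they split by sign. IFITM2 lay between 4.27 and 5.10 (median 4.43) on Ctl arrays and between 3.24 and 4.15 (median 3.52) on NaB arrays, without overlap, with a change of -0.98 ± 0.09 (adjusted p = 2.53e-08) and -0.91 ± 0.09 (adjusted p = 7.29e-08). IFITM3 lay between 4.85 and 5.72 on Ctl arrays and between 4.04 and 4.96 on NaB arrays, with -0.74 ± 0.11 (adjusted p = 7.59e-06) and -0.70 ± 0.11 (adjusted p = 1.40e-05). Both were lower in 6 of 6 experiments of both comparisons. Their probes match at 34 of 60 bases in the best ungapped alignment, against 17 to 23 for the other pairs of probes compared within families. Cross-binding between them was not tested.

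IFITM1, their neighbour on chromosome 11, went from between -3.88 and -2.29 on Ctl arrays to between -2.51 and -1.34 on NaB arrays. Its values of 0.85 ± 0.18 (adjusted p = 3.67e-04) and 0.45 ± 0.18 (adjusted p = 0.0335) missed the fold of 2 and were -0.09 and -0.32 with quantile normalization. BST2 (tetherin), which holds budding virus on the cell surface, lay between -3.25 and -2.81 on Ctl arrays and between -2.57 and -1.81 on NaB arrays, without overlap. Its change was 0.88 ± 0.19 (adjusted p = 4.64e-04) and 0.71 ± 0.19 (adjusted p = 2.64e-03), with 0.82 and 0.74 from its other tested probe.

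**Figure D4:**
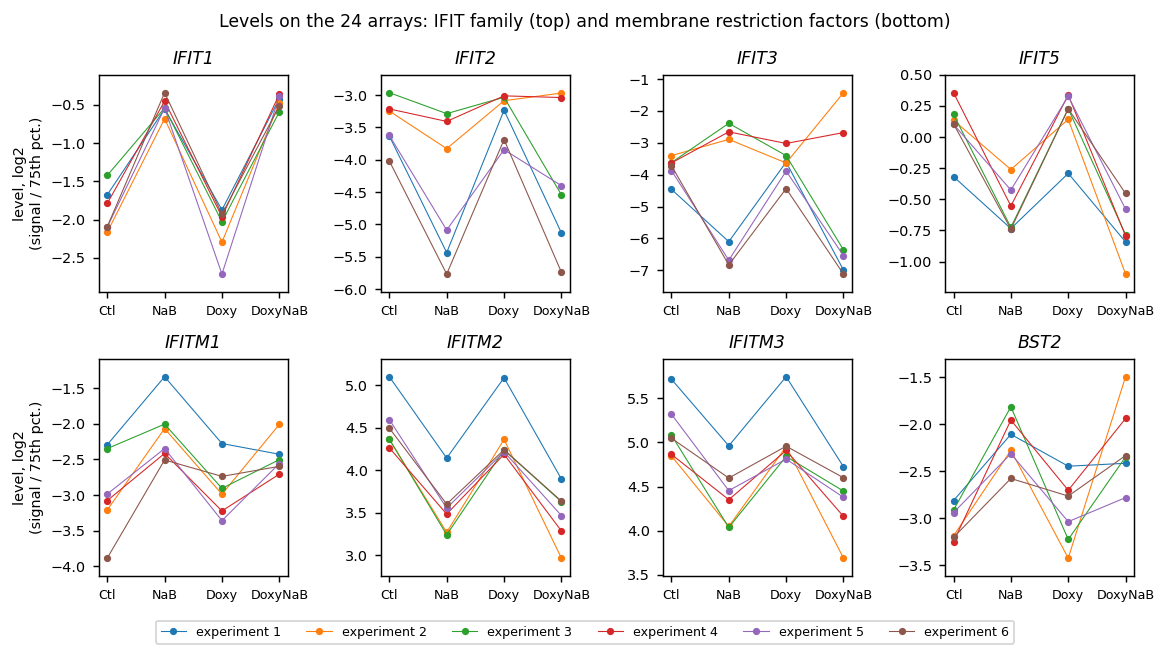
Level (log2 of signal over the array's 75th percentile) of the 4 IFIT genes (top) and of IFITM1, IFITM2, IFITM3 and BST2 (bottom) on the 24 arrays, by treatment, with a line for each of the 6 experiments and a scale of its own in each panel. IFIT1 is higher and IFIT5 lower with butyrate in each experiment, while on NaB arrays IFIT2 and IFIT3 are higher in experiments 2 to 4 than in experiments 1, 5 and 6, and on DoxyNaB arrays experiment 3 lies with the lower ones for IFIT3.

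ISG15 is a ubiquitin-like protein that is attached to other proteins, HERC5 is the ligase that attaches it and USP18 the protease that removes it. ISG15 lay between 4.25 and 4.86 (median 4.36) on Ctl arrays and between 4.89 and 5.60 (median 5.15) on NaB arrays, and between 3.94 and 4.76 (median 4.12) on Doxy arrays against 4.98 and 5.84 (median 5.55) on DoxyNaB arrays. It was higher with butyrate in 6 of 6 experiments of both comparisons, by 0.74 ± 0.09 (1.67-fold, adjusted p = 4.65e-07) and 1.28 ± 0.09 (2.43-fold, adjusted p = 2.75e-10), and was called in the latter. With scaling to the median the DoxyNaB/Doxy rise was 0.73 and was not called, and the NaB/Ctl change turned its sign.

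HERC5 lay between -1.23 and -0.69 on Ctl arrays and between -0.54 and -0.16 on NaB arrays, without overlap. Its change of 0.60 ± 0.06 (adjusted p = 1.14e-07) and 0.63 ± 0.06 (adjusted p = 6.51e-08) was under a fold of 2, and was -0.14 in NaB/Ctl with scaling to the median. USP18 lay between -2.22 and -1.63 on Ctl arrays and between -2.21 and -1.51 on NaB arrays, which overlap. Its changes were 0.03 (95% confidence interval -0.18 to 0.25) and -0.17 (-0.39 to 0.04), with the sign turned under another scaling in each.

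GBP2, a GTPase that attacks the compartments of intracellular microbes, was the 1 of 4 MX and GBP genes that could be tested. It was well above background on 3 Ctl, 6 NaB, 4 Doxy and 5 DoxyNaB arrays, with levels from -7.43 to -2.73 on Ctl arrays and from -3.89 to -0.38 on NaB arrays. These ranges overlap. Within an experiment it was higher with butyrate in 6 of 6 pairs of NaB and Ctl and in 5 of 6 of DoxyNaB and Doxy. It could be tested because all 6 NaB arrays, the group where it is high, had it well above background. The fitted change was 3.03 ± 0.41 and 1.84 ± 0.41, and it is given as a description, since the size rests on arrays without butyrate at background. NaB/Ctl was 2.39 in experiments 2 to 4 and 3.63 in experiments 5 and 6, and DoxyNaB/Doxy 1.97 and 2.60. With normexp it was 1.25 and 1.07 and was called in neither, and without the replicate block it was called in neither (adjusted p = 0.0144 and 0.129).

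The PARP members attach ADP-ribose to proteins, and 2 of the 3 could be tested. PARP9, which forms a complex with the ubiquitin ligase DTX3L, lay between -1.86 and -1.10 (median -1.60) on Ctl arrays and between -5.30 and -2.86 (median -3.72) on NaB arrays, 4 of them well above background. With doxycycline it lay between -2.07 and -1.56 without butyrate and between -4.42 and -2.56 with it. The fitted change was -2.30 ± 0.31 in NaB/Ctl (4.92-fold lower) and -2.01 ± 0.31 in DoxyNaB/Doxy (4.03-fold lower). It is given as a description, since PARP9 could be tested only through Ctl and Doxy, the groups where it is high. The sizes differed between batches, at -1.50 in experiments 2 to 4 and -2.83 in experiments 5 and 6 for NaB/Ctl. With normexp the DoxyNaB/Doxy value was -0.55 and was not called.

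PARP12, a PARP with zinc fingers that bind RNA, lay between -1.63 and -1.35 (median -1.57) on Ctl arrays and between -3.54 and -3.14 (median -3.40) on NaB arrays. Its range was -1.64 to -1.26 on Doxy arrays and -3.70 to -3.16 on DoxyNaB arrays. Its change was -1.82 ± 0.10 (3.53-fold lower, adjusted p = 1.61e-11) and -1.96 ± 0.10 (3.90-fold lower, adjusted p = 5.44e-12), with -0.74 and no call in DoxyNaB/Doxy under normexp. In PARP12 all butyrate arrays lay under all other arrays. The same held for PARP9, where it is only a description because of the filter. In bulk RNA, fewer cells with an RNA and less of it per cell cannot be told apart.

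SP100, a core protein of the nuclear bodies that silence incoming viral DNA, lay between 4.49 and 4.70 (median 4.65) on Ctl arrays and between 2.95 and 3.62 (median 3.34) on NaB arrays. On Doxy arrays it lay between 4.59 and 4.84 and on DoxyNaB arrays between 2.61 and 3.49. The groups are apart on all arrays. Its change was -1.32 ± 0.10 (2.51-fold lower, adjusted p = 7.62e-10) and -1.52 ± 0.10 (2.88-fold lower, adjusted p = 1.08e-10). Its other 2 tested probes were lower too, at -1.78 and -0.64 in NaB/Ctl, the latter with an adjusted p of 0.0848. SP110, a related nuclear body protein, lay between -2.25 and -1.07 on Ctl arrays and between -2.49 and -0.63 on NaB arrays, with a change of 0.03 ± 0.19 and 0.05 ± 0.19, whose sign turned under other scalings.

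TRIM21, a receptor for antibody-coated virus that has entered the cell, lay between -1.53 and -0.88 (median -1.18) on Ctl arrays and between -0.21 and 0.68 (median -0.03) on NaB arrays. On Doxy arrays the range was -1.59 to -1.04 and on DoxyNaB arrays -0.40 to 0.42. It rose by 1.26 ± 0.07 (2.40-fold, adjusted p = 1.37e-11) and 1.40 ± 0.07 (2.64-fold, adjusted p = 3.19e-12), in 6 of 6 experiments each. Under normexp its NaB/Ctl rise was 0.91 and under median scaling 0.52, and its DoxyNaB/Doxy rise under median scaling 0.85, none of them called.

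Of the remaining effectors, IFI6, a small membrane protein that protects the endoplasmic reticulum from viral replication, rose. It lay between 0.12 and 0.83 (median 0.32) on Ctl arrays and between 2.18 and 3.35 (median 2.25) on NaB arrays, and between -0.06 and 0.92 against 1.96 and 2.78 with doxycycline. The rise was 2.08 ± 0.11 (4.22-fold, adjusted p = 5.08e-12) and 2.03 ± 0.11 (4.10-fold, adjusted p = 6.34e-12). All butyrate arrays lay above all others.

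IFI35, a leucine zipper protein that pairs with NMI, showed the reverse. It lay between -0.33 and 0.27 (median -0.10) on Ctl arrays and between -2.43 and -2.19 (median -2.28) on NaB arrays. On Doxy arrays it was between -0.17 and 0.32 and on DoxyNaB arrays between -2.75 and -2.37. It fell by 2.23 ± 0.10 (4.68-fold lower, adjusted p = 7.40e-13) and by 2.53 ± 0.10 (5.79-fold lower, adjusted p = 1.33e-13), and no butyrate array reached the lowest array without it. ISG20, an exonuclease that degrades RNA, went from between -0.86 and -0.45 on Ctl arrays to between -0.21 and 0.05 on NaB arrays. Its change of 0.57 ± 0.08 (adjusted p = 3.17e-06) and 0.53 ± 0.08 (adjusted p = 7.40e-06) was under the fold of 2 and was -0.17 and -0.02 with scaling to the median.

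The 12 members without a tested probe are SAMD9, IFI44L, OAS1, GBP1, OAS2, MX2, HERC6, IFI44, MX1, RSAD2, IFI27 and PARP14. They include MX1, MX2 and RSAD2 (viperin), which are among the classical antiviral targets of interferon. OAS1 and GBP1 were well above background on 0 of 24 arrays, and MX2 on 1. IFI27 was well above background on 1 Ctl, 5 NaB, 3 Doxy and 5 DoxyNaB arrays, with a median level of -6.22 on Ctl and -3.17 on NaB arrays. HERC6 was so on 3, 5, 3 and 4 arrays in that order, and RSAD2 on 2, 3, 2 and 2. IFI44L was so on 0 Ctl and 3 NaB arrays, and those 3 are of experiments 2 to 4 (-3.78, -3.40 and -3.77). In experiments 1, 5 and 6 it was at -6.42, -6.70 and -7.21 on NaB and at -6.53, -6.74 and -7.31 on Ctl arrays. For these genes the signal limits what can be said, and no change was tested.

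Doxycycline moved none of the members past the threshold. In Doxy/Ctl, where over all genes 0.449% were called higher and 0.0991% lower at an adjusted p under 0.01, 0 of 31 members were called by limma, with 6 at an unadjusted p under 0.05 (background 13.3%). In DoxyNaB/NaB, with 0.667% of all genes higher and 2.11% lower, 0 members were called, with 5 at an unadjusted p under 0.05 (background 16.2%). The changes of the members lay between -0.27 and 0.46 in Doxy/Ctl and between -0.73 and 0.32 in DoxyNaB/NaB. The lowest adjusted p in Doxy/Ctl was that of IRF7 at 0.0935 (log2 -0.27 ± 0.07, lower in 6 of 6 experiments), followed by TRIM21 at 0.108 (-0.24 ± 0.07, lower in 6 of 6). In DoxyNaB/NaB it was that of ISG15 at 0.0447 (0.32 ± 0.09, higher in 6 of 6).

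The interaction is the butyrate change without doxycycline minus the change with it. By limma, 0 of 31 members passed an adjusted p under 0.01, against 1.09% of all genes with a more positive and 0.244% with a less positive change without doxycycline, and 3 members had an unadjusted p under 0.05 (background 12.6%). These 3 were ISG15, IRF9 and IFI35. ISG15 had the lowest adjusted p, with -0.54 ± 0.12 (95% confidence interval -0.80 to -0.28, adjusted p = 0.0252), its butyrate rise being larger with doxycycline in 6 of 6 experiments. It passed the threshold with quantile normalization and without the 2 arrays of brightest negative controls.

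IRF9 was at -0.33 ± 0.12 (adjusted p = 0.210) and IFI35 at 0.31 ± 0.14 (adjusted p = 0.374). With its 95% interval the interaction was -0.14 (-0.36 to 0.08) for IRF7, 0.03 (-0.29 to 0.35) for DHX58 and -0.21 (-0.51 to 0.10) for OASL. Of the members that fell it was -0.29 (-1.20 to 0.63) for PARP9, 0.31 (0.02 to 0.60) for IFI35 and 0.14 (-0.16 to 0.45) for PARP12, and of the dim members 1.19 (-0.02 to 2.40) for GBP2 and 0.71 (-1.40 to 2.83) for IFIT3. NaB/Ctl and DoxyNaB/Doxy share no array, but they share the experiments.

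**Figure D5:**
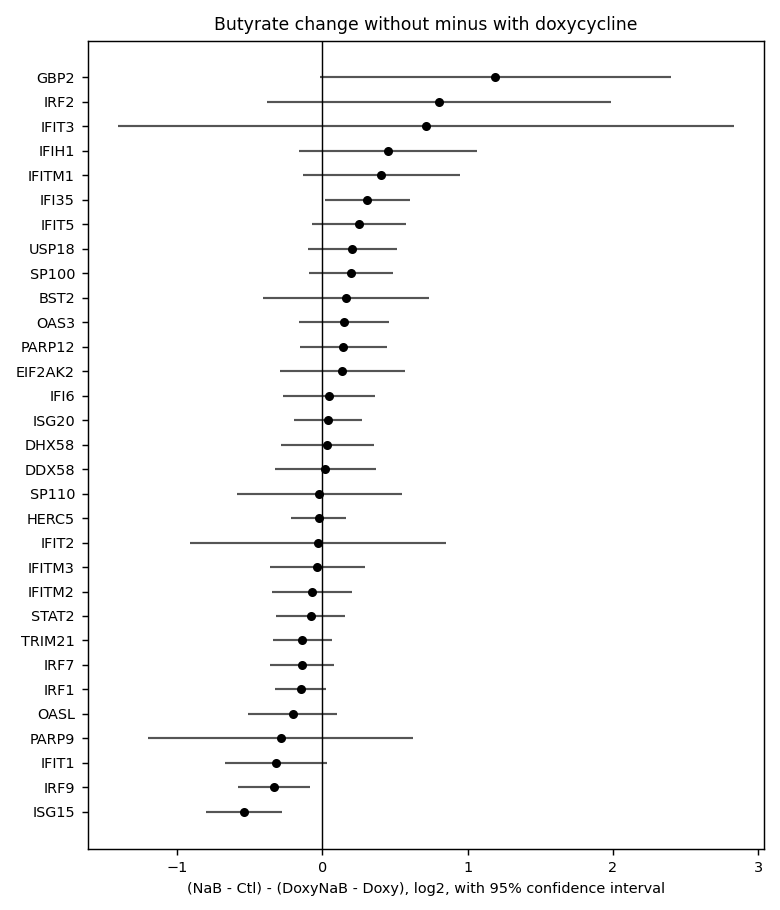
Butyrate change without doxycycline minus butyrate change with it for the 31 tested members, in log2 (points), with 95% confidence intervals (lines), ordered by value. ISG15 lies lowest at -0.54 and GBP2 highest at 1.19, the intervals of ISG15, IRF9 and IFI35 leave out 0, and 0 of 31 passed an adjusted p under 0.01.

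With levels centred on experiment and treatment, the median correlation over the 465 pairs of members across the 24 arrays was 0.0671 with a range from -0.87 to 0.95, and the median over pairs of all genes was 0.030. IFITM2 and IFITM3 correlated most, at r = 0.95. The next were IFIH1 with SP110 at 0.93, IFIT3 with SP110 at 0.91 and IFIT2 with IFIT3 at 0.89. IFIH1, SP110, IFIT2 and IFIT3 were all highest among DoxyNaB arrays on that of experiment 2. SP100 correlated with IFIT3 at -0.87. These points share arrays and their background, and the correlations are descriptions.

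The rest of the interferon pathway, a list of 125 genes by role chosen with earlier results of these data known, has 111 genes on the array and 66 with a tested probe. In NaB/Ctl 18 of the 66 were called higher and 12 lower, and in DoxyNaB/Doxy 18 and 14, where 21.2% and 11.2% of all genes tested were called in NaB/Ctl and 18.9% and 12.3% in DoxyNaB/Doxy. Among 2 tested ligands, both of the lambda family that signals in epithelia, IL29 had a fitted change of 1.85 ± 0.28 and 2.18 ± 0.28, and IL28A of 2.83-fold and 2.71-fold. Both passed the filter on low values only through groups with butyrate, where they are high (IL29 was well above background on 3 of 6 Ctl and 6 of 6 NaB arrays, IL28A on 4 and 6), so their values are a description. IFNB1 was well above background on 7 of 24 arrays and was not tested.

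Of the 6 receptor chains, IFNGR1 and IFNGR2, the 2 chains of the receptor for interferon gamma, moved in opposite directions. IFNGR1 went from between 0.21 and 1.15 on Ctl arrays to between 1.99 and 2.47 on NaB arrays, a 2.83-fold rise (adjusted p = 4.88e-09), and rose 2.47-fold (adjusted p = 3.43e-08) in DoxyNaB/Doxy. IFNGR2 went from between 0.89 and 1.27 on 5 Ctl arrays, the other Ctl array having an outlier spot and being left out, to between -1.61 and -1.23 on NaB arrays. It fell by 2.41 ± 0.08 (adjusted p = 6.35e-14) and by 2.88 ± 0.08 (adjusted p = 6.92e-15). The receptor for type I interferon was not called, with IFNAR1 at -0.13 ± 0.08 and -0.51 ± 0.08 and IFNAR2 at 0.63 ± 0.06 and 0.69 ± 0.06. Neither were the chains of the lambda receptor, IL28RA at -0.57 ± 0.06 and -0.58 ± 0.06 and IL10RB at 0.09 ± 0.09 and 0.11 ± 0.09.

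JAK1, the kinase bound to all interferon receptors, rose by 1.41 ± 0.11 (adjusted p = 1.68e-09) and 1.47 ± 0.11 (adjusted p = 9.47e-10). TYK2, its partner at the type I receptor, was higher by 0.67 ± 0.06 and 0.81 ± 0.06, under the fold of 2. JAK2, which serves the gamma receptor, had changes of 0.14 ± 0.10 and -0.10 ± 0.10 (adjusted p = 0.217 and 0.385).

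The 5 genes of this list with the largest rise in NaB/Ctl were GBP5 (3.48 ± 0.30), PSMB8 (2.41 ± 0.28), PSMB9 (2.25 ± 0.16), STAT3 (2.18 ± 0.11) and LAMP3 (1.93 ± 0.09). GBP5 is a guanylate-binding GTPase, and PSMB8 and PSMB9 are subunits of the immunoproteasome. Each of GBP5 and PSMB8 cleared background on 3 Ctl arrays, and they passed the filter only through groups with butyrate, so their values too are a description. In DoxyNaB/Doxy the 5 largest rises were those of GBP5 (3.23 ± 0.31, 1 DoxyNaB array left out for an outlier spot), IL29, STAT3 (2.18 ± 0.11), PSMB8 (2.17 ± 0.28) and PRIC285 (2.00 ± 0.10). In NaB/Ctl the 5 with the largest fall were NMI (-2.83 ± 0.21), DTX3L (-2.70 ± 0.19), STAT6 (-2.47 ± 0.11), IFNGR2 and MYD88 (-2.20 ± 0.13). DTX3L was well above background on 2 of 6 NaB arrays. It therefore did not pass the filter through NaB, where it is low, and its value is a description as well. NMI pairs with IFI35, and both were called lower in NaB/Ctl. DTX3L pairs with PARP9, but PARP9 passed the filter only through Ctl and Doxy, so no direction is read from that pair. The sensor adaptors TICAM1 (-2.17 ± 0.08) and TMEM173 (STING; -1.66 ± 0.06) fell as well, with all named here called in NaB/Ctl. In the interaction 1 of the 66 was called, SOCS2, a negative regulator of cytokine signalling, at 0.68 ± 0.11 (adjusted p = 1.64e-03), and it was also the 1 called in DoxyNaB/NaB, at -0.51 ± 0.08 (adjusted p = 5.37e-04). In Doxy/Ctl 0 of the 66 were called.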

How the data were processed

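RNA of 24 samples (6 experiments of 4 treatments) had been hybridised to 1-colour Agilent whole-genome arrays. The deposited files hold the intensity of 44495 spots per array, made for the authors with Agilent Feature Extraction 9.5.3.1 (per the file headers), with background and spatial trend removed within each array and no scaling between arrays. Other deposited columns hold flags for outlier and dim spots. Gene names are those of the files, with coordinates on NCBI36.

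Control spots and outlier spots (359 to 795 per array) were left out, spots of a probe were averaged, and log2 signal was taken over the array's 75th percentile (381.8 to 1345 signal units). Probes entered the test if, for 1 treatment or more, all 6 arrays had them well above background (18962 of 34127 probes, 15142 genes). All 24 arrays were fitted in R 4.3.3 with limma 3.58.1 (lmFit, eBayes), with the experiment as a block, as the study's methods used a paired test. Levels centred on treatment correlated between arrays of an experiment at r over 0.1 in all pairs except NaB and DoxyNaB of experiment 3 (r = -0.22). The fit was tested on simulated data. The number of arrays limits the precision, and the samples are separate experiments on 1 clone.

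Members, roles and the pathway list were chosen with earlier results of these data known. Of the called members the 8 with the largest rise and the 8 with the largest fall in each butyrate comparison were to be named, with the factors, sensors and EIF2AK2; the others were added for their roles after their values were seen. Promoters came from RefSeq. Alternatives were normexp background correction (offset 50), quantile normalization, scaling to the median with a floor of 0.01, other filters, blocks, tests and thresholds, the mean over probes, and leaving out experiments or arrays. Figures were drawn with matplotlib 3.10.9 in Python 3.11.15, from tables read by pandas 2.3.3 (numpy 2.4.6).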

Additional observations from a re-analysis of the deposited data

Results flagged for a closer look

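In 11 of 124 groups of 6 arrays (8.87%) the level of a member on 1 array stood apart from the other 5 by a gap test that flags about 1 in 20 groups by chance. Of the 11 levels, 9 were on arrays of experiment 1 and 2 on arrays of experiment 5. On the Ctl array of experiment 1, STAT2 was at 1.04 (next array 0.64), ISG15 at 4.86 (4.41) and PARP12 at -1.35 (-1.53). On the Doxy array of experiment 1, IFIT5 was at -0.29 (0.14), IFITM2 at 5.09 (4.36), IFITM3 at 5.74 (4.96), TRIM21 at -1.04 (-1.44) and IFI35 at 0.32 (0.01). IFI6 was at 3.35 on the NaB array of experiment 1 (2.53). On arrays of experiment 5, IRF9 was at -1.14 (-0.86) in Ctl and OAS3 at -2.79 (-2.47) in NaB.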

How the results depend on the processing

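The counts of members were recomputed under 22 alternatives. In NaB/Ctl, 7 were called higher (4 with normexp, 12 at a fold over 1.5) and 6 lower (13 with scaling to the median, 3 of 24 members with a filter on all 24 arrays, 11 at a fold over 1.5). Over all 15142 genes tested, 3211 were higher there (1391 with normexp, 4887 at a fold over 1.5). Lower were 1696 genes (4825 with scaling to the median, 1368 of 11994 with a filter on all 24 arrays, 3078 at a fold over 1.5). In DoxyNaB/Doxy, 6 were called lower (3 with normexp, 10 with quantile normalization, 13 with scaling to the median, 11 at a fold over 1.5). Over all genes 1863 were lower there (1249 with normexp, 2270 with quantile normalization, 4071 with scaling to the median, 3273 at a fold over 1.5). Under these scalings and at a fold over 1.5, the listed member counts moved the same way as those of all genes. Of the counts of 0, DoxyNaB/NaB higher became 1 with quantile normalization and 1 at an adjusted p under 0.05 (ISG15), and DoxyNaB/NaB lower 1 (IFI35) and Doxy/Ctl lower 2 (IRF7, TRIM21) with the methods' t-test, unadjusted. The matching counts over all genes were 124, 188, 613 and 617 in that order. A less positive interaction was called for 1 member (ISG15) with quantile normalization, 1 at an adjusted p under 0.05 and 1 without the 2 arrays of brightest negative controls, and a more positive one for 1 (IFI35) with the methods' t-test, unadjusted. Over all genes these 4 counts were 43, 67, 45 and 515. IRF2 turned in NaB/Ctl from 0.05 to -1.12 with quantile normalization. The causes were not tested. Without 1 experiment at a time, NaB/Ctl counts ran from 7 to 8 higher and 5 to 8 lower, DoxyNaB/Doxy counts from 9 to 9 higher and 6 to 8 lower, and the others stayed at 0. Over all genes the NaB/Ctl counts ran from 3111 to 3283 higher and 1636 to 1734 lower. Those of DoxyNaB/Doxy ran from 2779 to 2877 and from 1810 to 1891. With no replicate block, 6 were higher and 5 lower in NaB/Ctl, 8 and 6 in DoxyNaB/Doxy, and 0 in the other comparisons. Over all genes 2900 were then higher and 1653 lower in NaB/Ctl, and 2570 and 1811 in DoxyNaB/Doxy. Of the called members, 9 of 13 in NaB/Ctl (DHX58, IFI35, IFI6, IRF7, OAS3, OASL, PARP12, PARP9 and SP100) and 7 of 15 in DoxyNaB/Doxy (DHX58, IFI35, IFI6, IFIT1, IRF7, OASL and SP100) were called under every alternative that gave a value. PARP9 and PARP12 gave no value with a filter on all 24 arrays. PARP9 passed the main filter only through Ctl and Doxy, so its calls remain no support for a direction. Signal over background limits GBP2, IFIT2, IFIT3, IRF2, PARP9 and the 12 untested members.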
